A study of Saccharomyces cerevisiae with 3 samples.

Results

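The set described here holds 10 yeast genes: 3 of the propionate (methylcitrate) route, CIT3, PDH1 and ICL2, and 7 of the glyoxylate cycle and gluconeogenesis, CIT2, ICL1, MLS1, MDH2, PCK1, FBP1 and SFC1. They were picked by gene symbol out of 5543 genes named on the array, with their ratios already in view, so those ratios are given as a description and the members are not tested as a group. All 10 were measured on all 3 arrays, by 2 spots each, among 3579 genes measured on all 3. Each 2-colour array hybridised cDNA of a culture producing War1K762R together with cDNA of a culture producing War1, both from the GAL1 promoter in strain background W303. War1 is a zinc cluster activator that turns on PDR12, the gene of a carboxylate exporter, when cells meet weak organic acids, and K762R names an exchange of lysine for arginine. Both strains were kept at 30 °C in rich medium with 2% raffinose and were given 2% galactose for 1 h, and the labels name no acid. The labels do not say whether the chromosomal WAR1 gene was present. War1K762R carried Cy5 on replicates 1 and 2 and Cy3 on replicate 3, the dye swap. The source name of each channel gives this layout; on replicates 1 and 2 the treatment text of the Cy3 channel names the mutant too, against that source name.

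Values are log2 ratios of War1K762R over War1 after the median spot of each array was set to 0, so that a value of 1 is a doubling relative to that spot. That direction is likely and not certain: it takes the channel labels as correct and assumes that the scanner divided Cy5 by Cy3, and the sources used here do not give that formula. If the ratio ran the other way, every sign below turns, and so does every rank and every share of genes above or below a member; the turned values are given beside them. Over all genes tested the median of the mean ratios was 0.05, and the median SD between the 3 arrays was 0.20. Spots had values on 12277, 12112 and 7367 of 13056 positions in replicates 1, 2 and 3. PDR12 itself had ratios of 1.41, 0.95 and 0.52. WAR1, whose spots read both forms, had 0.74, 0.12 and 0.19, and its part in the results was not tested. In bulk RNA, a difference in every cell and a difference in some of the cells cannot be told apart.

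Yeast can grow on acetate or ethanol because the glyoxylate cycle bypasses the steps of the citric acid cycle that release carbon dioxide, and gluconeogenesis turns its product into sugar phosphates. Genes of both pathways are known to be repressed by glucose and switched on by the activators Cat8 and Sip4 when glucose is gone. Propionate enters a parallel route in mitochondria, in which propionyl-CoA and oxaloacetate form 2-methylcitrate, which is rearranged to 2-methylisocitrate and split into succinate and pyruvate. Cit3 is related to the citrate synthases and Icl2 to isocitrate lyase, and propionate is one of the weak acids that induce PDR12 through War1.

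CIT3 (YPR001W) encodes the mitochondrial citrate and methylcitrate synthase, the first enzyme of the propionate route. Its log2 ratios were 1.25, 1.22 and 0.55 in replicates 1, 2 and 3. All 3 arrays lay above 0, with the dye swap lowest. The mean was 1.01 ± 0.40 (SD, n = 3), a 2.01-fold higher level with War1K762R. CIT3 ranked 5 of the 3579 genes by mean ratio, and 9, 30 and 99 on the single arrays. With the ratio turned its rank by mean would be 3575, and 3571, 3550 and 3481 on the arrays. Its 6 spot values ran from 0.47 to 1.29, so no spot was below 0.

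ICL2 (YPR006C) encodes the mitochondrial 2-methylisocitrate lyase, the last enzyme of the route. Its log2 ratios were 0.76, 1.07 and 0.37. As for CIT3, every array was above 0 and the dye swap was lowest. The mean was 0.74 ± 0.35 (SD, n = 3), or 1.66-fold, and ICL2 ranked 25 of 3579, or 3555 with the ratio turned. The 6 spot values lay between 0.27 and 1.11.

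PDH1 (YPR002W) encodes the mitochondrial 2-methylcitrate dehydratase, which acts between CIT3 and ICL2. Its log2 ratios were −0.12, −0.21 and −0.13, below 0 on all 3 arrays. The mean was −0.15 ± 0.05 (SD, n = 3), a level 1.11-fold lower with War1K762R, and 87.4% of all genes had a higher mean (12.5% with the ratio turned). PDH1 varied less between arrays than most genes, since only 5.25% of genes had a smaller SD. Its spots on replicate 1 lay on opposite sides of 0, at −0.34 and 0.11, a gap of 0.45 against a median gap of 0.07 over all genes on that array. PDH1 therefore did not show the pattern of the other propionate genes. CIT3 exceeded it by 1.37, 1.43 and 0.68 on the arrays, and ICL2 exceeded it by 0.88, 1.29 and 0.51.

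**Figure D1:**
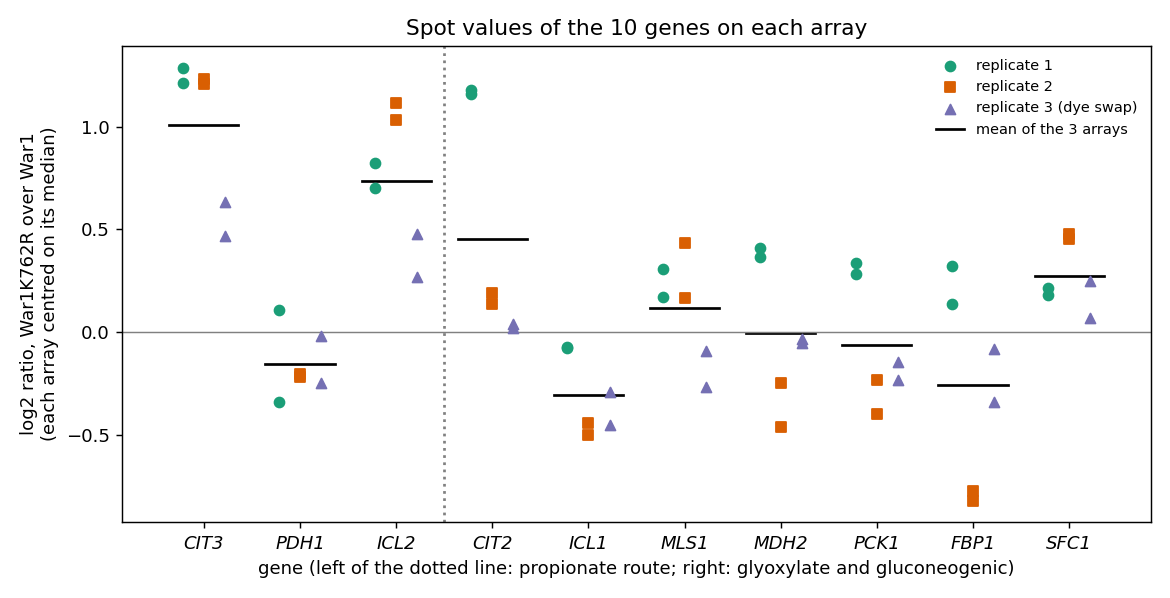
Log2 ratio (War1K762R over War1, vertical axis) of each spot of the 10 genes (horizontal axis). Colours and symbols mark the 3 arrays, and the black bar is the mean over arrays. All 6 values of CIT3 and of ICL2 lie above 0, those of PDH1 lie between −0.34 and 0.11, and the 2 high points of CIT2 are both from replicate 1.

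The first of the glyoxylate cycle genes, CIT2 (YCR005C), encodes the peroxisomal citrate synthase and is the standard reporter of the retrograde pathway from mitochondria to nucleus. Its log2 ratios were 1.17, 0.16 and 0.028 in replicates 1, 2 and 3. Replicate 1 stood far above the others, and both of its spots did, at 1.16 and 1.18. The mean of 0.45 ± 0.62 (SD, n = 3) was thus smaller than the SD between arrays, and 98.4% of genes had a smaller SD. Without replicate 1 the mean was 0.10.

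ICL1 (YER065C) encodes isocitrate lyase, which commits isocitrate to the glyoxylate cycle. Its log2 ratios were −0.08, −0.47 and −0.37, so that all arrays and all 6 spot values lay below 0. The mean was −0.31 ± 0.21 (SD, n = 3), 1.24-fold lower with War1K762R, and 97.9% of genes had a higher mean (2.07% with the ratio turned). Its direction was the opposite of that of its mitochondrial relative ICL2.

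MLS1 (YNL117W), which encodes the malate synthase that acts after isocitrate lyase, had log2 ratios of 0.24, 0.30 and −0.18. MDH2 (YOL126C), which encodes cytosolic malate dehydrogenase, had log2 ratios of 0.39, −0.36 and −0.05. Neither gene kept 1 sign over the arrays, and their means of 0.12 ± 0.26 and −0.0048 ± 0.37 (SD, n = 3) were smaller than the spread.

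Gluconeogenesis proper has PCK1 and FBP1 as its own steps. PCK1 (YKR097W), for phosphoenolpyruvate carboxykinase, had log2 ratios of 0.31, −0.31 and −0.19. FBP1 (YLR377C), for fructose-1,6-bisphosphatase, had log2 ratios of 0.23, −0.80 and −0.21. Both were above 0 on replicate 1 and below 0 on the other arrays. Their means were −0.07 ± 0.33 and −0.26 ± 0.52 (SD, n = 3), neither larger than its spread. In replicate 2 FBP1 ranked 3575 of 3579 genes, or 5 with the ratio turned, and its spots read −0.82 and −0.78.

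SFC1 (YJR095W) encodes the mitochondrial carrier that exchanges succinate from the glyoxylate cycle for fumarate. Its log2 ratios were 0.20, 0.47 and 0.16, with all 6 spot values above 0. The mean was 0.27 ± 0.17 (SD, n = 3), or 1.21-fold. This was the steadiest of the glyoxylate and gluconeogenic genes between arrays, and 14.1% of genes had a higher mean (85.9% with the ratio turned). Without centring its ratio on replicate 1 was below 0, since that array as a whole had a median of −0.27 as deposited.

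Ordered by mean ratio the genes ran CIT3, ICL2, CIT2, SFC1, MLS1, MDH2, PCK1, PDH1, FBP1 and ICL1. CIT3 was above ICL2 on all 3 arrays, by 0.49, 0.15 and 0.18. For each of the other 8 pairs of neighbours in this order the sign of the difference changed between arrays, and the mean difference was smaller than its SD.

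The genes chosen invite a comparison of the propionate route with the glyoxylate and gluconeogenic genes. The mean ratio of the 3 propionate genes was 0.63, 0.69 and 0.26 in replicates 1, 2 and 3, and that of the 7 other genes was 0.35, −0.14 and −0.12. The propionate genes were higher on each array, by 0.28, 0.84 and 0.38, with a mean difference of 0.50 ± 0.30 (SD, n = 3). The members of both groups overlapped on every array, because PDH1 always lay within the range of the other group or below it. Without PDH1 the mean difference was 0.84, without CIT3 it was 0.26, and with medians in place of means it was 0.82. The contrast was thus one of CIT3 and ICL2 with the remaining genes rather than of the route as a whole. CIT3 was above the highest of the 7 on every array, by 0.08, 0.76 and 0.39, whereas ICL2 was below CIT2 in replicate 1 and above all 7 in replicates 2 and 3. The difference of PDH1 from the mean of the 7 was −0.47, −0.07 and −0.018. Since the array's centring cancels in these differences, they do not depend on it.

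**Figure D2:**
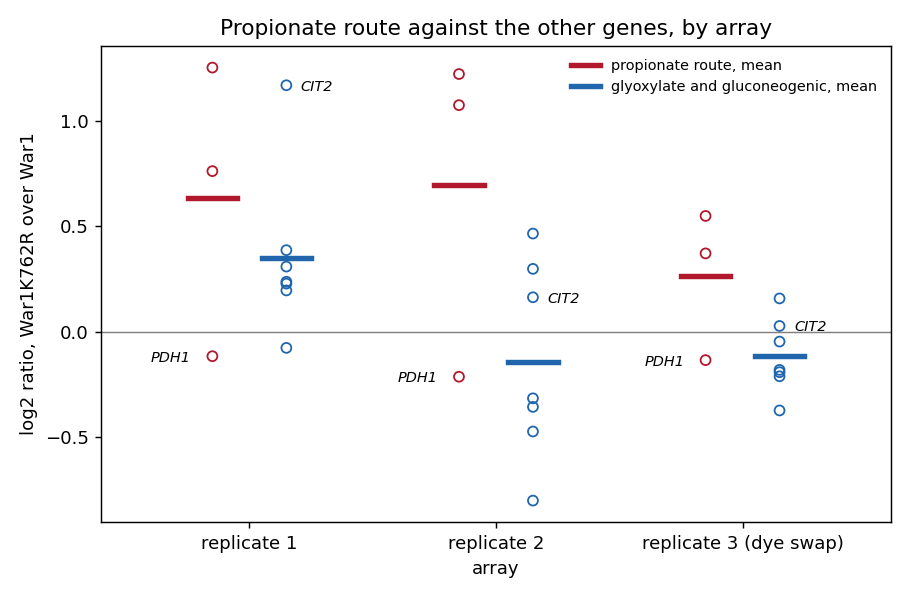
Log2 ratio of each gene (open circles, vertical axis) on each array (horizontal axis), in red for the propionate route and in blue for the glyoxylate and gluconeogenic genes; thick bars are the group means. The red mean is above the blue mean on all 3 arrays, by 0.28, 0.84 and 0.38, while PDH1 lies among or below the blue points.

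No pattern over the arrays was shared by all of the glyoxylate and gluconeogenic genes. SFC1 and MLS1 were highest in replicate 2, and CIT2, ICL1, MDH2, PCK1 and FBP1 in replicate 1, with ICL1 below 0 throughout. ICL1, MDH2, PCK1 and FBP1 were each lowest in replicate 2. The mean of CIT2, ICL1, MLS1 and MDH2 was 0.43, −0.09 and −0.14, and the mean of PCK1 and FBP1 was 0.27, −0.56 and −0.20. Both means were above 0 on replicate 1 alone. CIT2 at 1.17 was the largest value in the first of them there, and MLS1 and MDH2 were above 0 too. By contrast the mean of CIT3 and ICL2 was 1.01, 1.15 and 0.46.

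The 3 propionate genes lie near each other on chromosome XVI, in the order CIT3, PDH1, YPR003C, AIM45, HAL1 and ICL2, by the RefSeq table of the R64 assembly. CIT3 and PDH1 are next to each other on the same strand, and ICL2 is 5 places from CIT3 on the opposite strand. The 4 genes between CIT3 and ICL2, PDH1 among them, did not share the ratios of the outer pair. YPR003C, for a putative sulfate transporter, had log2 ratios of 0.07 and −0.10 in replicates 1 and 2. AIM45, a mitochondrial protein gene, had 0.15, 0.22 and 0.025 on the 3 arrays. HAL1, of salt tolerance, had 0.19 and 0.29 in replicates 1 and 2. So CIT3 and ICL2 each exceeded, on every array with a value, all genes that lie between them.

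Of the 13 other genes within 5 places, 12 were named on the array and 4 had values on all 3 arrays, with mean ratios from 0.11 for SNF8 to 0.58 for LSP1. LSP1, which encodes a core component of eisosomes, had log2 ratios of 0.77, 0.64 and 0.33. RPA135, for a subunit of RNA polymerase I, had 0.12, 0.18 and 0.14. HAA1, which encodes an activator of the response to weak acids such as acetic acid, had log2 ratios of −0.31 and 0.12 in replicates 1 and 2. HAT1, next to CIT3 on its other side, had −0.15 and 0.05. AEP3, ULA1, REC8 and SUT2, likewise without a value in replicate 3, had means over replicates 1 and 2 of −0.04, 0.036, −0.024 and −0.23.

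**Figure D3:**
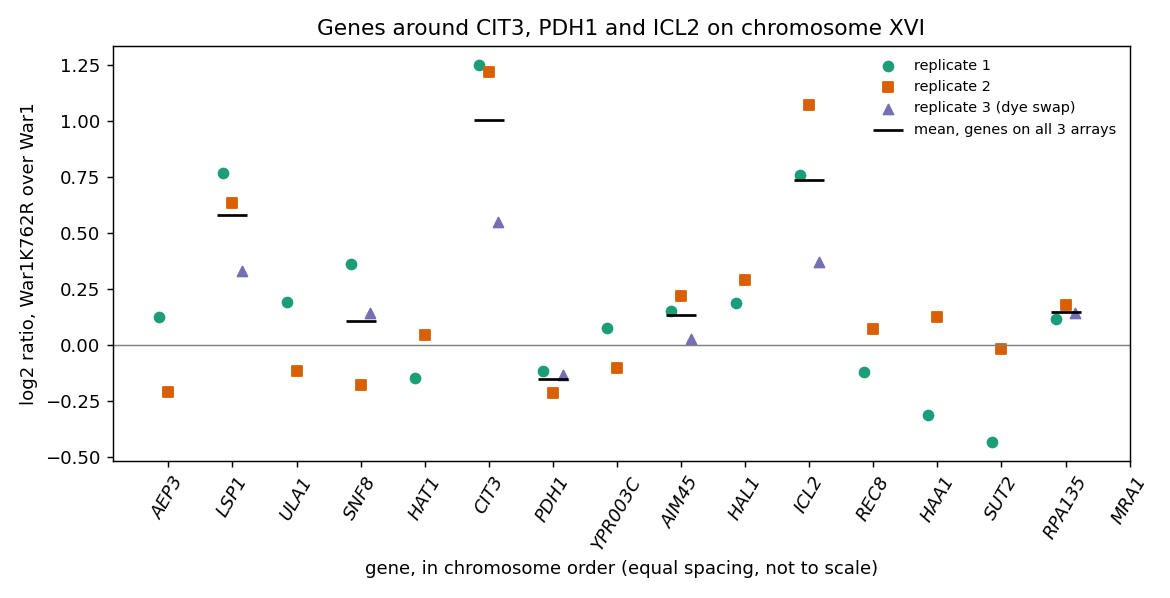
Log2 ratio (vertical axis) of the genes around CIT3, PDH1 and ICL2 in their order on chromosome XVI (horizontal axis, equal spacing); symbols mark the arrays and black bars the mean of genes measured on all 3. CIT3 and ICL2 stand at means of 1.01 and 0.74, PDH1 between them at −0.15, and MRA1 is drawn with no point.

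Relatives of the members were compared within each array. Of the citrate synthase genes, CIT1, for the main mitochondrial enzyme of the citric acid cycle, had log2 ratios of 0.36, 0.15 and 0.25. CIT3 exceeded CIT1 by 0.89, 1.07 and 0.30, and exceeded CIT2 by 0.08, 1.06 and 0.52. CIT2 was above CIT1 in replicates 1 and 2 and below it in replicate 3. ICL2 exceeded ICL1 by 0.84, 1.55 and 0.74, with a mean difference of 1.04 ± 0.44 (SD, n = 3). CIT3 was thus above CIT1 and CIT2, and ICL2 above ICL1, on each array. In replicate 1 the difference of 0.08 between CIT3 and CIT2 was near the median gap between spots of a gene, 0.07.

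Of the malate dehydrogenases, MDH1, the mitochondrial enzyme gene, had log2 ratios of −0.12, −0.25 and −0.07, and MDH3, the peroxisomal one, had 0.41, 0.39 and −0.036. The difference MDH2 minus MDH3 was −0.018, −0.74 and −0.0098, so that only replicate 2 set them clearly apart. MDH3 exceeded MDH1 by 0.52, 0.63 and 0.034. DAL7, the second malate synthase gene, which serves allantoin breakdown, had a mean of 0.13 ± 0.20 against 0.12 ± 0.26 for MLS1 (SD, n = 3). ACO1, for aconitase, is not a relative of a member but was listed with them, and had −0.22, 0.53 and 0.17. Probe sequences were not used, so how far relatives hybridise to each other's spots was not tested.

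By Euclidean distance over the 3 log2 ratios, the 5 genes closest to CIT3 among 3579 were CAR1, USV1, PDR12, UGA1 and JEN1, at 0.24, 0.29, 0.32, 0.34 and 0.35. PDR12 was below CIT3 in replicates 2 and 3 and above it in replicate 1. CAR1, for arginase, had 1.11, 1.41 and 0.53. USV1, a putative transcription factor gene, had 1.37, 1.07 and 0.33. UGA1, for 4-aminobutyrate transaminase, had 0.98, 1.03 and 0.57, and JEN1, for the lactate and pyruvate permease, had 0.96, 1.17 and 0.35. All of these had their lowest ratio on the dye swap, as CIT3 had. Genes this close to CIT3 could not do otherwise, so this is no separate result. ICL2 came at place 12 with a distance of 0.54, whereas PDH1 came at place 3052 and ICL1 at place 3464.

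Genes around the members' pathways were taken in 10 lists of 68 genes, of which 54 were measured on all 3 arrays. In a fit of the mean ratio against 0 over all genes (limma, Benjamini-Hochberg), 0 of the 54 passed an adjusted p of 0.05 in either direction, and 10 had an unadjusted p under 0.05, all with positive means. Over all 3579 genes, 0.335% passed as higher and 0.0279% as lower, and 11.1% and 2.68% had an unadjusted p under 0.05 with a positive and a negative mean. The median of the 54 means was 0.17, against 0.05 for all genes. Their highest means were 0.58 for AGP2, a plasma membrane regulator of carnitine uptake, and 0.58 for DIC1, the mitochondrial dicarboxylate carrier. Their lowest were −0.34 for IDP2, cytosolic NADP-dependent isocitrate dehydrogenase, and −0.15 for MDH1.

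AGP2 had log2 ratios of 0.26, 0.95 and 0.54, above 0 on all arrays. DIC1 had 0.30, 1.16 and 0.28, again above 0 throughout, with replicate 2 far above the others. IDP2 had 0.09, −0.73 and −0.36, the same signs as PCK1 and FBP1 on each array. The list of acyl-CoA supply also held ACH1, named for acetyl-CoA hydrolase, an activity that uses up acetyl-CoA. ACH1 had 0.67, 0.59 and 0.23, while the acetyl-CoA synthetase genes ACS1 and ACS2 had means of 0.06 ± 0.18 and 0.24 ± 0.18 (SD, n = 3).

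Regulators of the glyoxylate and gluconeogenic genes differed among themselves. SIP4 had log2 ratios of 0.05, 0.08 and −0.14, and CAT8 had −0.16 and −0.12 in replicates 1 and 2 and no value in replicate 3. ADR1, an activator gene of ethanol and fatty acid use, had 0.43, −0.0011 and 0.29, and ERT1, another gluconeogenic regulator gene, had 0.30, 0.19 and 0.019. The list of carbon source regulators had 9 measured genes and a median of 0.07, with SIP2, a subunit of the Snf1 kinase complex, highest at 0.47 ± 0.18 and RDS2, likewise an activator gene of gluconeogenesis, lowest at −0.13 ± 0.16 (SD, n = 3). In the list of the retrograde pathway, which controls CIT2, 5 genes were measured on all arrays, with a median of 0.24. Among these RTG1, whose product activates CIT2 together with Rtg3, was highest at 0.44 ± 0.63 and RTG2, the upstream sensor gene, lowest at −0.037 ± 0.31 (SD, n = 3). RTG3 had −0.47 and −0.65 in replicates 1 and 2 and MKS1, a negative regulator gene of the pathway, −0.24 and −0.26, both without a value in replicate 3. RTG1 was highest in replicate 2, at 1.16, and CIT2 in replicate 1, and a link between their ratios was not tested.

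Enzyme genes shared by glycolysis and gluconeogenesis, 10 measured, had a median of 0.16, from −0.11 for TDH2 to 0.43 for PGI1. The 6 measured genes of steps that only glycolysis uses, or of the regulation of such steps, had a median of 0.29. PCK1 and FBP1, for the opposite direction, are members and were not in this list. PFK2, of phosphofructokinase, was highest at 0.48 ± 0.55 (SD, n = 3). Lowest was FBP26, for a regulatory enzyme and not a step of either pathway, at −0.020 ± 0.21 (SD, n = 3). Near-identical copies such as TDH2 and TDH3 could share signal. The median was 0.16 for relatives of the members listed together with ACO1, whose own mean was that median. It was 0.24 for acyl-CoA supply, 0.18 for the carnitine shuttle and 0.14 for mitochondrial carriers. For pyruvate carboxylase, IDP2 and malic enzyme it was 0.20. The GID ubiquitin ligase, which degrades gluconeogenic enzymes, was listed together with the conjugating enzyme gene UBC8. The 2 measured genes of that list, VID24 and UBC8, had means of 0.19 and −0.12, with a median of 0.037.

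**Figure D4:**
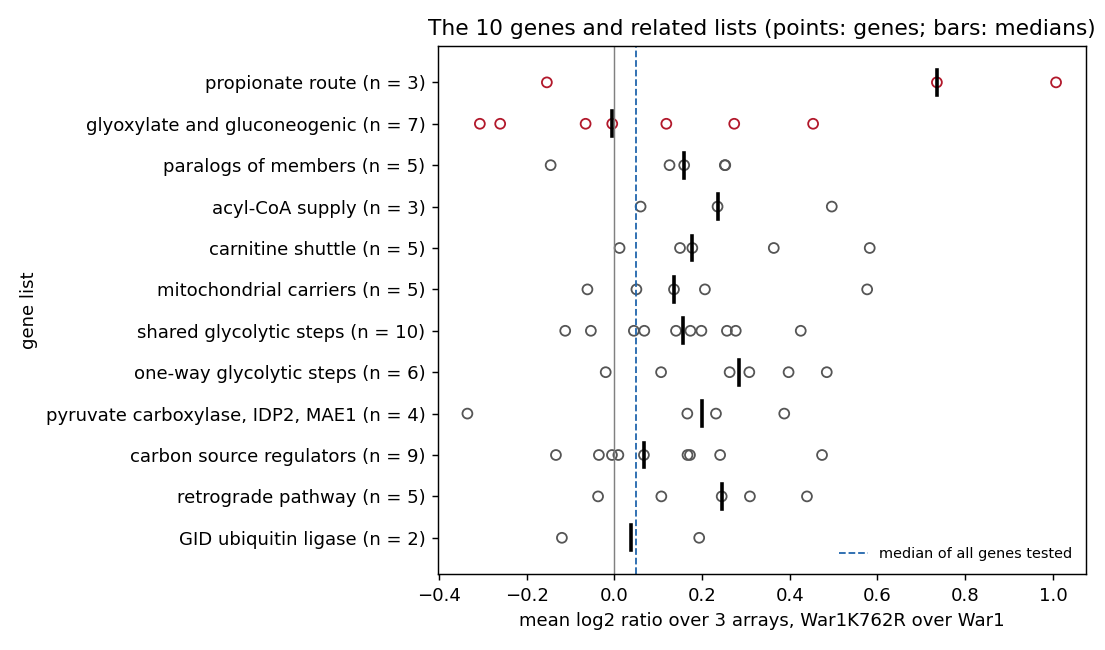
Mean log2 ratio over 3 arrays (horizontal axis) of each gene (points), by list (rows, with the number of genes measured on all arrays); black bars are list medians and the dashed line is the median of all genes tested, 0.05. CIT3 at 1.01 and ICL2 at 0.74 are the highest points, and the 54 genes of the other lists run from −0.34 to 0.58.

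Counted over the members, 1 of 10, CIT3, passed the fit over all genes as higher (limma, adjusted p = 0.0375), against 0.335% of all genes, and 0 passed as lower, against 0.0279%. At an unadjusted p under 0.05, CIT3, ICL2 and CIT2 were above 0, as were 11.1% of all genes, and ICL1 was below 0, as were 2.68% (limma). ICL2 did not pass (limma, adjusted p = 0.0719). Because the members were picked with these ratios known, nothing is read from that share. CIT3, ICL2, CIT2 and SFC1 were above 0 on all 3 arrays, as were 24.7% of all genes, and PDH1 and ICL1 were below 0 on all 3, as were 13.5%. A mean at least 1.5-fold higher was found for CIT3 and ICL2 among the members and for 1.73% of all genes, and a mean at least 1.5-fold lower for 0 members and 0.0559% of all genes. On all 3 arrays at once, 0 members reached 1.5-fold in either direction, against 0.196% of all genes higher and 0.0279% lower. The call of CIT3 ended without replicate 1 (limma, adjusted p = 0.176, mean 0.89 over the other arrays), with a dye term (0.0552), with the arrays centred on the tested genes (0.0733) and with replicate 3 turned once more (0.902). ICL2 passed in 4 of the 12 other settings, with no centring (limma, adjusted p = 0.0405), on at least 2 arrays (0.0243), with array weights (0.0439) and without replicate 3 (0.0208, but 0.0562 on the same genes), and its mean stayed between 0.49 and 0.92 in all 12.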

How the data were processed

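The members and the gene lists were chosen with earlier results of these data known. The deposited values are log2 ratios, 1 for each spot of an array. For the authors' scanner, spot filter and normalization, no source used here gives a description. Read back from the logarithm, deposited values between −0.5 and 0.5 were ratios with 3 decimals, within rounding, in 100% of cases for replicates 1 and 2 and, once the sign was changed, for replicate 3. As deposited, 9.95% of the values of replicate 3 met this, against 7.31% by chance. The column of replicate 3 was thus read as already inverted by the authors, and turning its recovered ratio by the dye labels gave back the deposited column. Spots were named by the platform table, centred on the array median and averaged per gene. The fit used limma 3.58.1 in R 4.3.3 (lmFit, eBayes, two-sided). It was tried on simulated data with independent noise and no dye effects, array-wide effects or missing spots. That trial therefore does not cover those factors. Per the design text the arrays are biological repeats, and their number limits the precision. Named genes are every member, the highest and lowest 2 of the other lists, relatives, chromosome neighbours and the 5 genes closest to CIT3; other genes were named after their values were seen. Other centring, array weights, a dye term, single spots, fewer arrays and left-out replicates were tried, as the closing section gives.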

Additional observations from a re-analysis of the deposited data

How the results depend on the processing

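The mean difference of 0.50 between the propionate route and the other members was 0.82 for medians and 0.84 without PDH1. Over 19 other settings it ranged from 0.25, with replicate 3 turned once more, to 0.84. Leaving out replicates in turn gave 0.33 to 0.61. The difference kept its sign in all 19, but it was above 0 on each array and centring cancels in it. Left-out replicates, the dye term and other centring could thus not change that sign. Over all genes, 12 were higher and 1 lower (limma). The higher count was 3 with centring on the genes tested, 25 with no centring, 67 on at least 2 arrays, 2 with a dye term, 24 with array weights and 4 on single spots. Turning replicate 3 once more gave 0 higher and 0 lower (limma, 145 at an unadjusted p under 0.05). The lower count was 50 on at least 2 arrays. Leaving out replicates in turn gave 1 to 46 higher and 1 to 34 lower; without replicate 3 on the same genes, a setting chosen after seeing the data, it was 15 and 1. The cause was not tested. In the other lists 0 genes passed in any of these settings (limma); at an unadjusted p under 0.05, 1 to 15 were higher and at most 2 lower. Intensities were not used here, so dim spots could not be told from bright ones.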
